A study of Mus musculus with 2 samples.

Results

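The cells described here are monocytes recovered from tumours of mice with medulloblastoma, a tumour of the cerebellum, after FLASH or standard proton irradiation. A barcode of the droplet data was taken as a monocyte by its own counts of unique molecular identifiers (UMIs, each standing for 1 captured RNA molecule). It needed at least 500 detected genes, at most 10% mitochondrial UMIs, at least 4 UMIs over Ly6c2, Ccr2, Plac8, Chil3, Vcan and F10, and at least 2 UMIs of Lyz2. It also needed fewer than 5 UMIs over C1qa, C1qb and C1qc, and none of Cd3e, Cd3d, Trac, Flt3, Xcr1 or Cxcr2. This gave 44 monocytes of 10366 kept barcodes in the FLASH library and 22 of 8461 in the standard library, 66 in all of 27136 deposited barcodes.

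The FLASH group was 1 library of tumour-derived cells after FLASH proton irradiation, in which the dose is delivered at an ultra-high rate, and the standard group was 1 library after standard proton irradiation. All tumours carried the genotype Math1-Cre;SmoM2fl/fl: Cre driven by Math1 switches on SmoM2, an activated form of Smoothened, in the granule neuron lineage, so the monocytes belong to the host and not to that lineage. The labels give 5 Gy for both samples, but the design text of the series gives 10 Gy, so the dose is uncertain. The labels do not say how long after irradiation the tumours were taken, or from how many mice of what age, and no unirradiated group was analysed here. Each comparison below sets 1 library beside 1 library, with no replicate check and no test.

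Monocytes are made in the bone marrow and reach tissues through the blood. Classical monocytes of the mouse carry high Ly6C and the chemokine receptor CCR2, which brings them to sites that make CCL2, and in tissue they can become macrophages or cells that present antigen. Non-classical monocytes have little Ly6C, depend on the nuclear receptor NR4A1 and patrol the vessel wall. The brain's own macrophages, the microglia, arise in the embryo and make the complement protein C1q in large amounts, as do border macrophages.

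The label of monocyte was checked against the markers Ly6c2, Ccr2, Plac8, Chil3 and Vcan, which the choice itself used, so their level is a description. The 5 markers together reached 3634 counts per 1000000 UMIs of the summed cells (CPM) in the FLASH monocytes and 2889 CPM in the standard monocytes. In the myeloid barcodes with at least 5 C1q UMIs (C1q-high barcodes, 299 in the FLASH library and 297 in the standard library) the sum was 122 CPM and 113 CPM. No monocyte had a UMI of the NK cell genes Ncr1, Klrb1c, Nkg7 and Gzma. These genes were rare throughout, with 1 to 54 UMIs each over all barcodes of a library. The C1q-high barcodes had 1 and 0 of them, so their absence says little about the label. Of 6 neutrophil markers S100a9, Retnlg, Ly6g and Mmp9 were at 0, but S100a8 had 19 UMIs in FLASH monocytes and 18 in standard monocytes and Csf3r had 7 and 3. S100a8 was seen in 7 of 44 FLASH and 2 of 22 standard monocytes, and the richest cells held 8 and 17 of its UMIs. The 6 markers summed to 124 CPM in FLASH monocytes and 153 CPM in standard monocytes, against 73.6 and 77.5 CPM in C1q-high barcodes. Of 6 dendritic cell markers Flt3 and Xcr1, which the choice barred, and Zbtb46 and Ccr7 were at 0, while Cd209a had 2 and 3 UMIs and Clec9a 1 and 0. That sum was 14.3 and 21.8 CPM, against 2.16 and 1.40 CPM in C1q-high barcodes. The microglial transcription factor Sall1 had none either, while the 6 microglia markers together reached 210 CPM in FLASH monocytes and 146 CPM in standard monocytes, against 2348 CPM and 2765 CPM in the C1q-high barcodes.

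RNA of the surrounding tumour was present. The 7 markers of the granule neuron lineage summed to 473 CPM in FLASH monocytes and 342 CPM in standard monocytes, with UMIs in 20 of 44 and 9 of 22 cells. At least 5 such UMIs were seen in 6 FLASH monocytes and 3 standard monocytes, which were also deep, with medians of 8820 and 10538 UMIs. Over all monocytes the median depth was 4383.5 UMIs in the FLASH library (range 2330 to 10615) and 4995.5 UMIs in the standard library (2300 to 13961), and the sums were 209127 and 137430 UMIs. The Cre transgene, listed as a feature of its own, had 33 UMIs in 8 FLASH monocytes (158 CPM) and 5 UMIs in 3 standard monocytes (36.4 CPM), against 723 and 832 CPM in barcodes of the granule neuron lineage. The libraries shared 46 barcode sequences, none of them a monocyte.

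The 250 bases before the first start that RefSeq lists are printed for 4 genes, 3 that set these cells apart and 1 close copy that does not (build GRCm38.p6). Ly6c2, the gene behind the classical marker, is shown with its neighbour Ly6c1, which had no UMI in any monocyte although the genes are close copies. Ifitm6 and Treml4 are shown because they were among the genes furthest above C1q-high barcodes. Capitals mark GGAAGT, a core that PU.1 and other ETS factors can bind, read on either strand (ACTTCC on the other). The Ly6c2 sequence lies at chr15:75111972-75112221, minus strand, that of Ly6c1 at chr15:75048838-75049087, minus strand, that of Ifitm6 at chr7:141016893-141017142, minus strand, and that of Treml4 at chr17:48264045-48264294, plus strand.
Ly6c2: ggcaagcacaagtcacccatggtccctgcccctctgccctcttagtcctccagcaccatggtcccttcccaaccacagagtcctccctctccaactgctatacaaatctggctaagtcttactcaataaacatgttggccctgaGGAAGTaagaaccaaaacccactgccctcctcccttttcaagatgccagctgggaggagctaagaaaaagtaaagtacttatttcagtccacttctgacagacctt
Ly6c1: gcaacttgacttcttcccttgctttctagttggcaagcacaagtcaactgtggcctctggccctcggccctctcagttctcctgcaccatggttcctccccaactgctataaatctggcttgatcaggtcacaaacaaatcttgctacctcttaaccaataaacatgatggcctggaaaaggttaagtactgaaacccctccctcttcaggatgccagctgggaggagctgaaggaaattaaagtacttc
Ifitm6: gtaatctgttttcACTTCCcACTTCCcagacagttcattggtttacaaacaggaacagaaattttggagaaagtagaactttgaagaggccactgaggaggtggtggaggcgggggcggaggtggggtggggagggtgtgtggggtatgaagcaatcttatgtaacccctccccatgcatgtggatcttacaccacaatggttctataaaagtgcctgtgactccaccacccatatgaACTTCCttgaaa
Treml4: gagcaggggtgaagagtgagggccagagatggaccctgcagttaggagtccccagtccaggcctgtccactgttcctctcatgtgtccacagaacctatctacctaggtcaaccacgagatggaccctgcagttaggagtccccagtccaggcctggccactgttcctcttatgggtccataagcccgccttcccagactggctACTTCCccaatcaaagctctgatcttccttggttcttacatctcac
Aligned end to end, the Ly6c2 and Ly6c1 sequences were identical at 170 of 210 aligned bases (81.0%). GGAAGT was in 20.0% of the 27025 promoters of this length, in 5 of the 13 matched among the 15 genes highest in monocytes against C1q-high barcodes, and in 4 of the 9 matched among the 10 lowest. The C/EBP motif TTGCNNAA, read the same way and able to overlap GGAAGT, was in 9.55% of all promoters, in 3 of those 13 and in 2 of those 9. The interferon-stimulated response element, searched as a pair of GAAA with any 2 bases between them, was in 3.04% of all promoters, in 1 of those 13 (Cytip) and in 0 of those 9. These matches describe letters in a window, and both sets of genes held the first 2 motifs at similar rates.

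Lyz2 was present in all 66 cells, since the choice asked for it. Plac8, a small cysteine-rich protein of myeloid cells, had UMIs in 42 of 44 FLASH monocytes and 16 of 22 standard monocytes, with 376 and 198 UMIs and at most 31 in a cell of either library. Ccr2 had UMIs in 34 of 44 and 16 of 22 cells, with 169 and 94 UMIs, so the 2 genes were seen equally often in the standard library. Ly6c2 itself had UMIs in only 16 of 44 and 6 of 22 cells. In the standard library 28 of its 58 UMIs came from 1 cell, and in the FLASH library at most 9 of 51 did.

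Chil3, a chitinase-like secreted protein, had UMIs in 17 of 44 FLASH monocytes and 3 of 22 standard monocytes. F10, the gene of coagulation factor X, had UMIs in 16 of 44 and 9 of 22 cells. Barcodes of the granule neuron lineage (at least 5 marker UMIs, no Lyz2 or C1q UMI, median depths of 5942 UMIs in the FLASH library and 6545.5 in the standard library) give the level of these genes outside myeloid cells. There Plac8, Ccr2, Ly6c2 and F10 were each seen in at most 0.104% of barcodes, and Chil3 in none of the FLASH and 0.0545% of the standard ones. Vcan, which encodes the matrix proteoglycan versican, was different: it had UMIs in 18 of 44 FLASH and 6 of 22 standard monocytes, but also in 32.05% and 31.7% of granule lineage barcodes, so a Vcan UMI alone does not tell a monocyte from the granule lineage here.

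**Figure D1:**
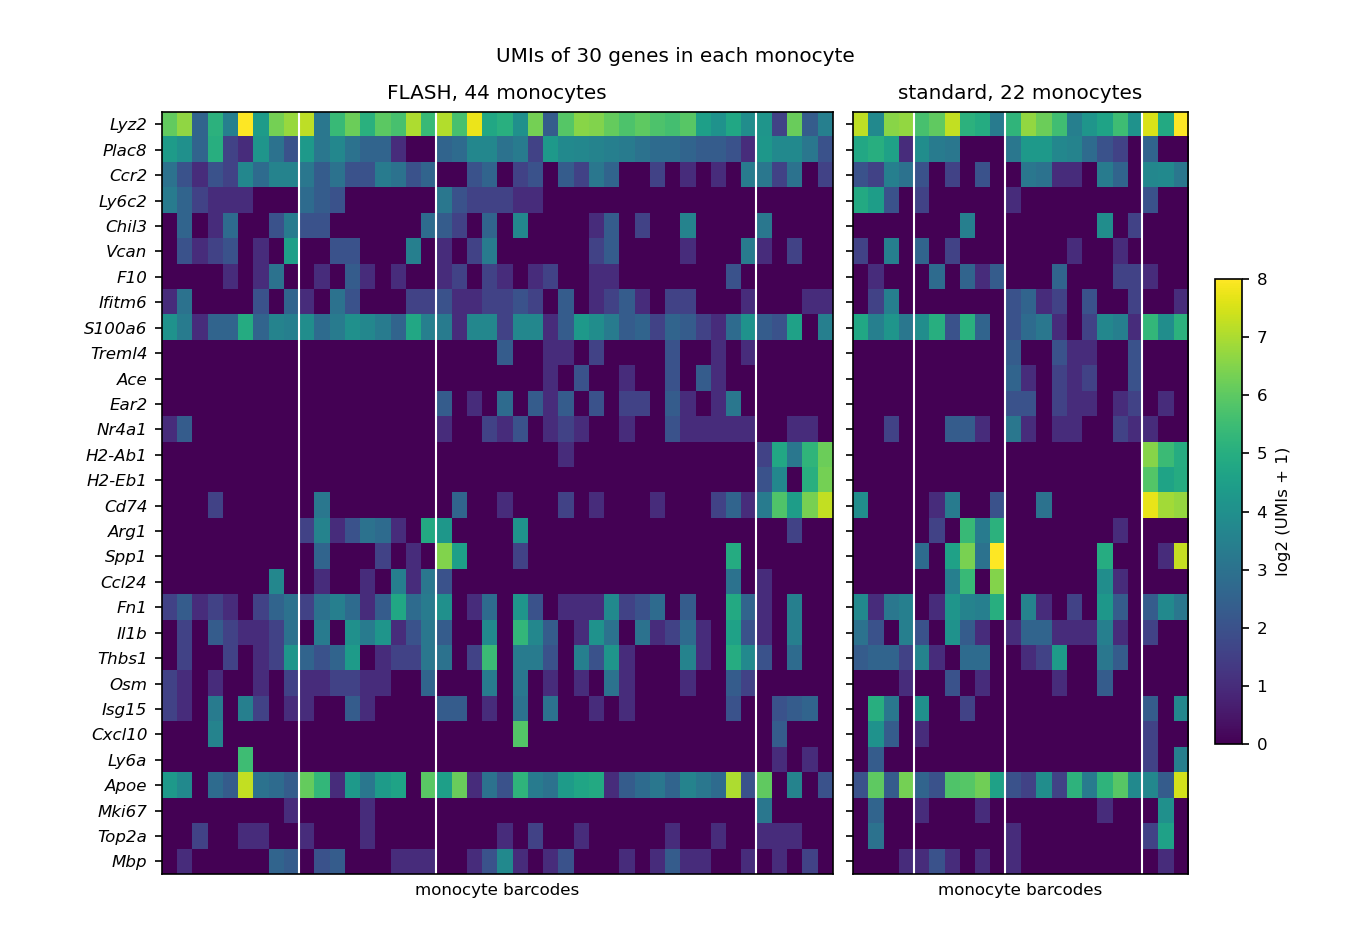
UMIs of 30 genes in each monocyte, on a scale of log2 (UMIs + 1), with FLASH monocytes on the left and standard monocytes on the right; each column is 1 barcode. From left to right, white lines part the remaining cells, those with Arg1 or Spp1 UMIs and those with UMIs of non-classical genes. The last block holds cells with at least 5 MHC class II UMIs, which stand out at the right edge (5 FLASH and 3 standard cells). The non-classical genes used here are a wider set than Treml4, Ace and Ear2. Cells that fit more than 1 block are drawn in the one furthest right, so some with Arg1 or Spp1 UMIs are in the non-classical block.

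The monocytes were not of 1 kind. Genes of non-classical monocytes marked 1 set: at least 1 UMI of Treml4 (a receptor of this subset), Ace (angiotensin-converting enzyme) or Ear2 (a ribonuclease) was present in 16 of 44 FLASH monocytes (36.4%, 95% interval 22.4 to 52.2) and in 8 of 22 standard monocytes (36.4%, 17.2 to 59.3). Intervals here and below are exact and cover counting error only, not the spread between cells, animals or preparations. Ly6c2 was at 0 in 12 of these 16 FLASH cells and in 7 of these 8 standard cells, against 28 of 44 and 16 of 22 of all monocytes. A line at 1 UMI also took in cells rich in other genes. Of the FLASH cells, 1 had 9 UMIs each of Ccr2 and Vcan, and 1 had 8 UMIs of Ly6c2, 18 of Arg1 and 88 of Spp1.

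Genes not used to draw that line followed it in both libraries. Nr4a1 stood at 197 CPM in the Treml4-, Ace- or Ear2-positive FLASH cells and at 340 CPM in the standard ones, against 90.2 and 125 CPM in the other monocytes. Itgal, an integrin chain of leukocytes, stood at 289 and 461 CPM in the positive cells, against 105 and 62.4 CPM in the others. Klf4, a transcription factor needed for monocyte formation, stood at 434 and 752 CPM, against 135 and 104 CPM, and Pglyrp1, which binds bacterial peptidoglycan, at 184 and 243 CPM, against 15.03 and 10.4 CPM. These lines were drawn after the values were seen and are descriptions.

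MHC class II genes, which present antigen to CD4+ T cells, marked a small set. At least 5 UMIs over H2-Ab1, H2-Aa and H2-Eb1 were found in 5 of 44 FLASH monocytes and 3 of 22 standard monocytes. H2-Ab1 stood at 5077 CPM in these FLASH cells and 4620 CPM in these standard cells, and at 5.54 and 0 CPM in the other monocytes. Cd74, the invariant chain, stood at 11058 CPM in these FLASH cells and 12180 CPM in these standard cells. Cd209a, a lectin of monocyte-derived dendritic cells, was seen in 1 of the 5 and 1 of the 3 cells, while Zbtb46, a transcription factor of classical dendritic cells, had no UMI. In so few cells that 0 does not tell them from dendritic cells, whose gene Flt3 had only 21 and 18 UMIs over all barcodes. Lyz2 stood at 3617 CPM in these FLASH cells and 14784 CPM in these standard cells, against 13150 and 11620 CPM in all monocytes. Ly6c2 had UMIs in none of the 5 FLASH cells and in 1 of the 3 standard cells.

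Arg1, which encodes arginase 1 and is a gene of alternatively activated and suppressive myeloid cells, was present in 11 of 44 FLASH and 5 of 22 standard monocytes, with 95 and 87 UMIs. In these Arg1-positive cells Fn1, fibronectin, stood at 2158 CPM in the FLASH library and 2554 CPM in the standard library, against 658 and 921 CPM in Arg1-negative monocytes. Cebpb, a transcription factor of monocyte differentiation, stood at 3287 and 3047 CPM, against 1573 and 1581 CPM. Of the Arg1-positive cells, 1 of 11 in the FLASH library and 1 of 5 in the standard library also had a UMI of Treml4, Ace or Ear2, in both cases Ear2, against 16 of 44 and 8 of 22 of all monocytes. Single cells also carried most of an interferon gene: 57 of 72 FLASH UMIs of Cxcl10, an interferon-induced chemokine, and 41 of 42 FLASH UMIs of Cxcl9 came from 1 cell each, and 45 of 47 FLASH UMIs of Ly6a came from 1 cell.

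Mki67 or Top2a, genes of dividing cells, had a UMI in 14 of 44 FLASH and 7 of 22 standard monocytes. Of these, 6 and 3 cells had no UMI of a granule lineage marker, among them 1 standard cell with MHC class II UMIs that held 15 UMIs of Mki67 and 23 of Top2a. In granule lineage barcodes Mki67 alone was seen in 44.3% and 43.4% of cells. Genes of granulocyte and monocyte progenitors were nearly silent: Mpo, Elane, Ctsg, Ms4a3, Cebpe, Ltf and Ngp had no UMI, and the other 5 of the 12 listed had at most 2. S100a8, given above, was seen in monocytes without its usual partner S100a9; in barcodes with a Cxcr2 UMI the 2 genes had 1144 and 1939 UMIs in the FLASH library and 606 and 1016 in the standard library.

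Set beside the C1q-high barcodes of the same library, the monocytes differed widely. Of 3038 genes with at least 50 CPM in 1 of the classes in each library, 310 (10.2%) were at least 2-fold higher in monocytes in both libraries and 198 (6.52%) were at least 2-fold lower. Because the cells were chosen by C1q and monocyte genes, these are descriptions. Leaving out the genes of the choice, Treml4 was among the highest, with 62.2 CPM in FLASH monocytes and 87.3 CPM in standard monocytes, against 0.433 and 0 CPM in C1q-high barcodes. Ifitm6, an interferon-induced membrane protein of myeloid cells, had 64 UMIs in FLASH monocytes and 29 in standard monocytes, against 0 and 6 UMIs in C1q-high barcodes. With a floor of 3 counts for the class at 0, Ifitm6 was at least 236-fold higher in FLASH monocytes and Treml4 at least 62.3-fold higher in standard monocytes.

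Genes of the S100 family, most of whose proteins bind calcium, were among the most abundant of these genes. S100a6 stood at 1865 CPM in FLASH monocytes and 2008 CPM in standard monocytes, against 81.8 and 90.6 CPM in C1q-high barcodes. S100a4 stood at 1253 and 1426 CPM, against 44.2 and 61.2 CPM. S100a10 stood at 765 and 851 CPM, against 39.8 and 32.7 CPM. Surface receptors followed: Clec4e, which recognizes mycobacterial and damage-derived lipids, had 210 and 189 CPM, against 3.03 and 8.87 CPM, and Trem1, an amplifier of inflammatory signals, had 81.3 and 65.5 CPM, against 1.30 and 1.40 CPM. The other genes named by the same rule, which kept the 15 highest, were Ace, Slpi, Mcemp1, Gpr141, Slfn4, Cytip, Napsa and Itgb7.

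Genes of microglia and macrophages were close to absent from monocytes. Sparc, a matrix-associated glycoprotein, had no UMI in any monocyte, against 797 CPM in the FLASH and 1017 CPM in the standard C1q-high barcodes, which made it at least 55.5-fold and at least 46.6-fold higher there with the same floor. Fcrls, an Fc receptor-like gene of microglia, had 1 and 3 UMIs in monocytes and 3123 and 2790 UMIs in C1q-high barcodes. Serpine2, Slco2b1, Cst7 and Apoc4 also had no UMI in either monocyte group, and Ccl12, Syngr1, Pf4 and Gpr34 had at most 2. Apoe, which encodes a lipid carrier, was still abundant in monocytes, at 4490 CPM in FLASH monocytes and 5377 CPM in standard monocytes, but stood at 69196 and 60967 CPM in C1q-high barcodes.

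Grouped by function and without the genes of the choice, 7 of 9 measured classical monocyte genes and 7 of 9 non-classical ones were at least 2-fold higher in monocytes than in C1q-high barcodes in both libraries. So were 16 of 22 interferon-stimulated genes, 7 of 11 S100 and annexin genes and 5 of 6 coagulation and fibrinolysis genes, against 10.2% of all genes. None of the 8 MHC class I genes was past 2-fold in either direction in both libraries. Of 18 genes that monocytes gain as they become macrophages, again without C1q, 13 were at least 2-fold lower and 0 higher, against 6.52% of all genes lower. Measured genes have at least 50 CPM in 1 of the classes in each library. A gene low in 1 class thus enters only when it is high in the other, so these shares are partly set by the filter. Of 16 listed non-classical genes only 9 were measured.

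**Figure D2:**
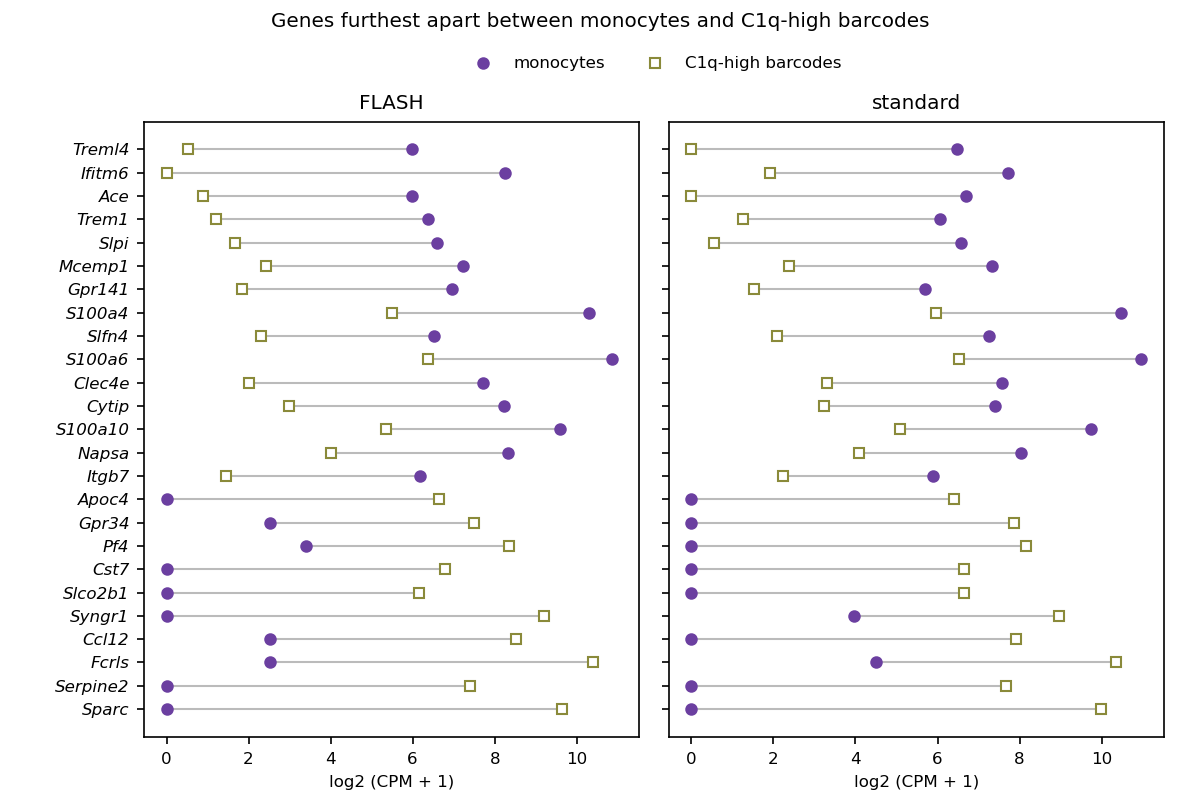
Levels, as log2 (CPM + 1), of the 15 highest and 10 lowest named genes in monocytes (filled circles) and in C1q-high barcodes (open squares), with the FLASH library on the left and the standard library on the right. The ranking asked for the same direction in both libraries, so the shared direction of each gap was set by the choice of genes. Sparc, Serpine2, Slco2b1, Cst7 and Apoc4 sit at 0 in monocytes of both libraries.

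The FLASH library held the larger share of monocytes. They made up 0.424% of kept barcodes after FLASH (95% interval 0.309 to 0.569) and 0.260% after standard irradiation (0.163 to 0.393), a log2 ratio of 0.71 whose interval ran from -0.062 to 1.52 and included 0. Among myeloid barcodes, counted as monocytes plus C1q-high barcodes, monocytes were 44 of 343 after FLASH (12.8%, 9.48 to 16.8) and 22 of 319 after standard irradiation (6.90%, 4.37 to 10.3), a log2 ratio of 0.90 (0.13 to 1.70). C1q-high barcodes were 2.88% of kept barcodes after FLASH and 3.51% after standard irradiation. With 1 library each, a difference between the irradiation modes and a difference between 2 tumours or 2 cell preparations cannot be told apart.

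The limits of the choice bear on these shares. Of the FLASH monocytes 38 had at least 8 monocyte UMIs and 1 had exactly 4, and of the standard monocytes 18 had at least 8 and 3 had exactly 4. Just outside, 4 FLASH and 1 standard barcodes had 3 monocyte UMIs, and 5 and 3 barcodes met the monocyte sum with 5 to 9 C1q UMIs. Another 19 and 13 met it with at least 10 C1q UMIs and were counted as C1q-high. A further 7 FLASH and 2 standard barcodes were left out only by a UMI of the barred T cell, dendritic cell or neutrophil genes. In these Lyz2 stood at 12316 and 19174 CPM and Plac8 at 2469 and 955 CPM. The 3 standard monocytes with exactly 4 UMIs had 10304 CPM of Apoe and 3864 CPM of Ctsd, a lysosomal protease, and no UMI of Plac8 or Ly6c2.

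**Figure D3:**
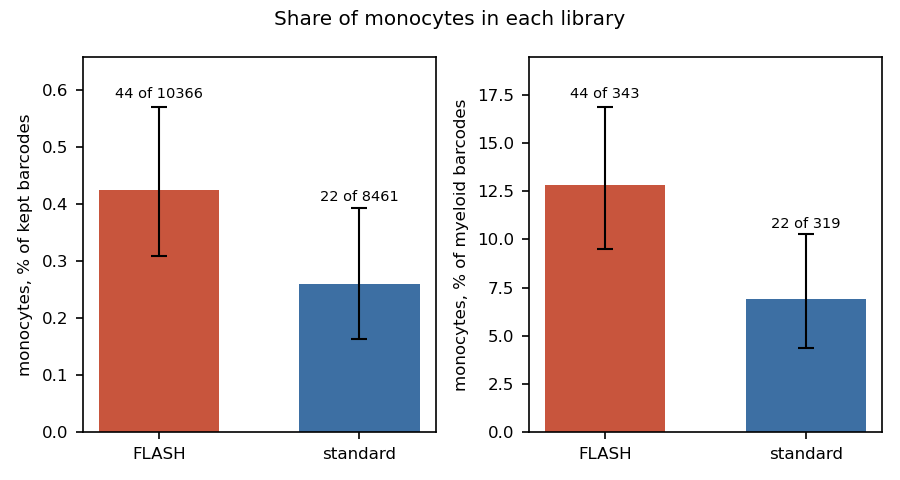
Monocytes as a percentage of kept barcodes (left) and of monocytes plus C1q-high barcodes (right) in the FLASH and standard libraries; bars are shares and whiskers exact 95% Clopper-Pearson intervals that cover counting error only. The FLASH share is higher in both panels, 0.424% against 0.260% and 12.8% against 6.90%.

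For expression after FLASH against standard irradiation, UMIs were summed over the monocytes of each library and 0.5 count was added to each sum. In all, 1709 genes had at least 30 UMIs and were seen in at least 10 monocytes. Most were alike: 94.0% lay within 2-fold and 76.4% within 1.5-fold, with a median log2 ratio of -0.034. A gene was called past 2-fold, and 52 genes (3.04%) were higher and 51 (2.98%) lower after FLASH. The 95% counting interval lay off 0 for 91 of these 103 genes (the 103 are 6.03% of those counted), and for 275 (16.1%) of all 1709 genes. Such intervals leave out the spread between cells.

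The highest ratios were carried by small counts. Flot1, a membrane scaffold protein, had 29 UMIs in FLASH monocytes and 3 in standard monocytes, a log2 ratio of 2.47 (0.98 to 5.03). Fem1c, part of a ubiquitin ligase, had 28 and 3 UMIs (2.42, 0.92 to 4.98). Id1, an inhibitor of helix-loop-helix transcription factors, had 33 and 4 UMIs (2.29, 0.95 to 4.40). Mbp, the myelin basic protein gene, had 54 and 9 UMIs (1.91, 0.95 to 3.18).

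These 4 genes were also seen in granule lineage barcodes, Flot1 in 24.6% of FLASH and 25.7% of standard ones, Fem1c in 25.6% and 25.1%, Id1 in 20.1% and 21.3%, and Mbp in 42.1% and 36.3%. The level of Flot1 there was 46.3 CPM in the FLASH library and 46.1 CPM in the standard library, below the 139 CPM of FLASH monocytes and above the 21.8 CPM of standard monocytes. Markers of oligodendrocytes, the cells that make myelin, summed to 292 CPM in FLASH monocytes and 80.0 CPM in standard monocytes, with Mog at 0. Without the monocytes that held at least 5 granule lineage UMIs the log2 ratios were 2.04, 2.23, 2.19 and 1.88 in that order. Thinning to 2000 UMIs, a single random draw from each cell, gave 1.05 for Id1 and 1.04 for Mbp. The mean of per-cell CPM, which also gives each cell equal weight, was 2.19 for Id1 and 1.69 for Mbp. Here and below, thinned values hold the noise of that draw. The part of free RNA in these 4 genes was not tested. March5, a mitochondrial ubiquitin ligase, Ssh2, a cofilin phosphatase, and Wac are also among the 10 highest, at 1.87, 1.54 and 1.53, and stood between 30.3 and 127 CPM in granule lineage barcodes.

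Osm and Plaur were nearly silent in the granule lineage. Osm, a cytokine of the interleukin-6 family (chr11:4236420-4241026, plus strand), had 54 UMIs in 21 of 44 FLASH monocytes and 10 UMIs in 5 of 22 standard monocytes. Its level was 258 CPM after FLASH and 72.8 CPM after standard irradiation, a log2 ratio of 1.77 (0.84 to 2.97). Plaur, the urokinase receptor, had 52 UMIs in 26 of 44 FLASH monocytes and 11 UMIs in 9 of 22 standard monocytes (1.58, 0.68 to 2.72), with at most 7 and 3 UMIs in a cell. Osm was seen in at most 0.0593% and Plaur in at most 0.599% of granule lineage barcodes. When every monocyte was thinned to 2000 UMIs the ratios were 0.73 for Osm and 1.37 for Plaur. The mean of per-cell CPM gave 1.21 for Osm and 1.24 for Plaur. After thinning, the share of cells with an Osm UMI was 34.1% after FLASH and 18.2% after standard irradiation, against 47.7% and 22.7% before.

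Among the genes lowest after FLASH, Cd9, a tetraspanin, had 49 UMIs in FLASH monocytes and 89 in standard monocytes (log2 ratio -1.46). Mif, a cytokine that slows macrophage migration, had 42 and 67 UMIs (-1.27, -1.87 to -0.70). Pgam1, a glycolytic enzyme, had 37 and 64 UMIs (-1.39, -2.02 to -0.79), and Tuba1b, a tubulin, had 42 and 74 UMIs (-1.42, -2.01 to -0.86). Sf3b5, a splicing factor, stood lowest of the named 10, at 57.4 CPM after FLASH and 204 CPM after standard irradiation (-1.79). Mrpl51, Cd24a, Tardbp, Kmt5a and Sar1a made up the rest, between -1.70 and -1.28. Sar1a stood at -0.47 after thinning but at -1.60 in the mean of per-cell CPM. Kmt5a stood at -0.80 with at least 8 monocyte UMIs required. Cd9 and Mif are also abundant in granule lineage barcodes, at 386 and 414 CPM for Cd9 and 599 and 596 CPM for Mif. Without the monocytes with MHC class II UMIs, Tuba1b stood at -0.67, no longer past 2-fold.

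**Figure D4:**
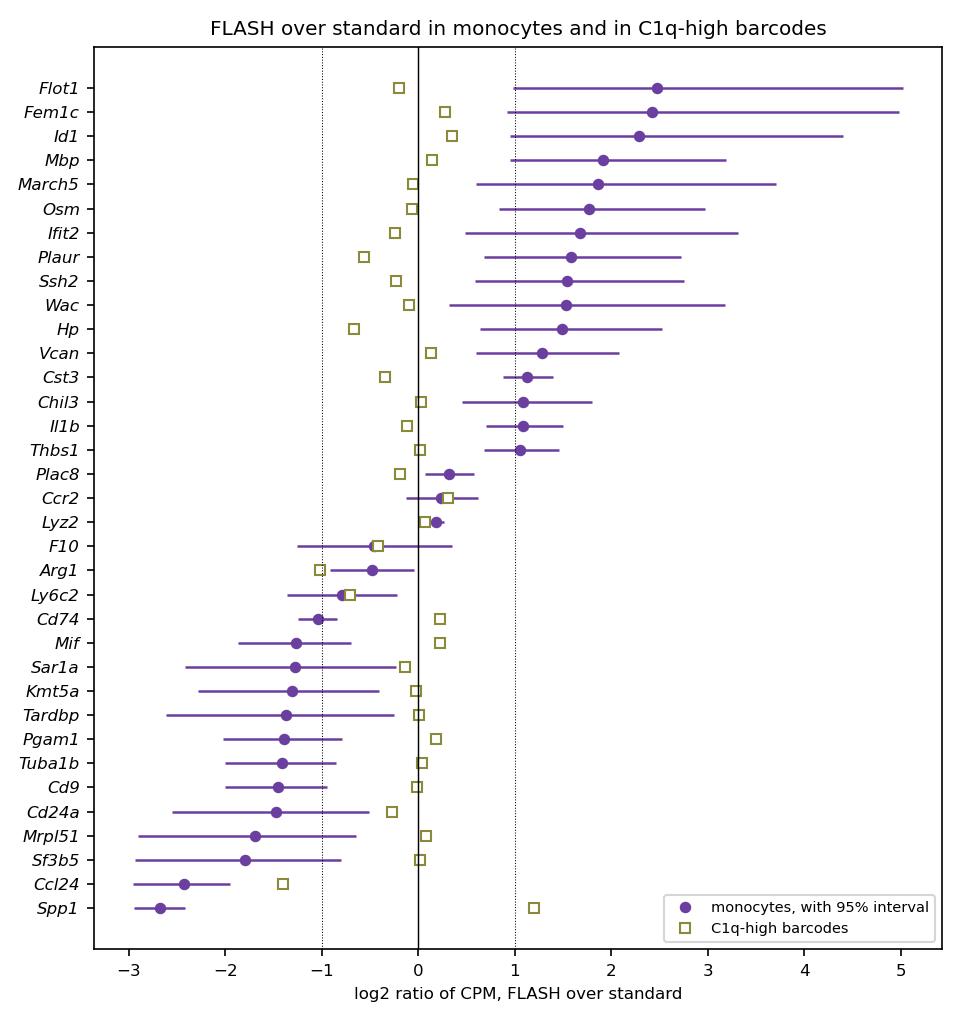
Log2 ratios of CPM, FLASH over standard, in monocytes (filled circles, with exact 95% counting intervals) and in C1q-high barcodes (open squares) for the 20 named genes of the comparison and 15 monocyte genes described in the text; dotted lines mark 2-fold. In C1q-high barcodes all points but those of Spp1, Ccl24 and Arg1 lie within 2-fold, and Spp1 lies on opposite sides, at -2.68 in monocytes and 1.202 in C1q-high barcodes.

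Of the genes that chose the cells, Vcan and Chil3 were past 2-fold higher after FLASH, with 79 and 21 UMIs for Vcan (log2 ratio 1.28, 0.60 to 2.07) and 85 and 26 UMIs for Chil3 (1.08, 0.45 to 1.80). Chil3 was past 2-fold in 13 of 16 alternative settings and stood at 0.67 in the mean of per-cell CPM. Plac8 was at 0.32 (-0.09 without the cells with MHC class II UMIs), Ccr2 at 0.24, Lyz2, the lysozyme gene, at 0.18, F10 at -0.46 and Ly6c2 at -0.79. Without the cell richest in Ly6c2 in each library, Ly6c2 was at -0.13. Here and below, leaving out the richest cell removes a larger part of the standard than of the FLASH monocytes, which by itself raises a ratio. Of the 9 classical monocyte genes counted that the choice did not use, 2 were past 2-fold higher and 1 lower, against 3.04% and 2.98% of all genes, with a median of 0.23 against -0.034 for all genes. The higher ones were Hp, haptoglobin, with 57 and 13 UMIs (1.48), and Sirpb1c (1.24), and the lower one was Ms4a4c (-1.23). Ly6c2, Sirpb1c, Ms4a4c and Slfn1 have close copies in the genome, so their counts are uncertain. Of 5 non-classical genes 0 were higher and 1 was lower, Cd36, a scavenger receptor (18 and 24 UMIs, -1.01); that ratio turned to 0.05 when at least 8 monocyte UMIs were asked for.

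Inflammatory cytokines had the highest list median, 0.77, but only 4 of 16 listed genes had enough counts. Il1b, interleukin-1β, had 230 UMIs in FLASH monocytes and 71 in standard monocytes, or 1100 and 517 CPM, a log2 ratio of 1.08 (0.70 to 1.495). A similar share of cells carried it, 31 of 44 and 16 of 22, and the richest cells had 38 and 16 UMIs. After thinning to 2000 UMIs per cell, a single random draw, the ratio was 0.18, while the mean of per-cell CPM gave 0.82. Osm, given above, was the other of the 4 genes past 2-fold higher, against 3.04% of all genes. Tgfb1 stood at 0.45 and Il1rn, which encodes the interleukin-1 receptor antagonist, at -0.66.

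Thbs1, thrombospondin 1, had 238 UMIs in FLASH monocytes and 75 in standard monocytes, in 29 of 44 and 13 of 22 cells (1.05, 0.68 to 1.45). It was 1.65 without the cells that held at least 5 granule lineage UMIs and 0.78 without those with MHC class II UMIs. Among 6 counted coagulation and fibrinolysis genes besides F10, Thbs1 and Plaur were past 2-fold higher and 0 lower, with a median of -0.14. Of all genes 3.04% were past 2-fold higher and 2.98% lower. Among 7 chemokine genes Cxcl2, which draws neutrophils, was higher (155 and 49 UMIs, 1.05) and Ccl24, a ligand of CCR3, was lower (44 and 157 UMIs, -2.43), with a median of -0.003. For Ccl24, 91 of the 157 standard UMIs came from 1 cell, and without the richest cell of each library it stood at -1.64. Cxcl2 was 0.16 when 3 monocyte UMIs were enough and 2.11 without the cells with granule lineage UMIs. It was 0.43 after thinning and 0.77 in the mean of per-cell CPM.

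Interferon-stimulated genes as a list lay at the level of all genes, with a median of -0.03 over 19 genes. Of these, 3 were past 2-fold higher and 0 lower, against 3.04% and 2.98% of all genes. Ifit2 had 31 UMIs in 10 FLASH monocytes and 6 UMIs in 2 standard monocytes (1.67, 0.48 to 3.32). Slfn1 had 70 and 17 UMIs (1.40, 0.66 to 2.29) and Rnf213 had 47 and 15 UMIs (1.01). Ifitm3, the most abundant, stood at 3199 CPM after FLASH and 2510 CPM after standard irradiation (0.35), and Isg15, a ubiquitin-like modifier, at 340 and 524 CPM (-0.63). For Isg15, 31 of the 72 standard UMIs came from 1 cell, UMIs were seen in 20 of 44 FLASH and 6 of 22 standard monocytes, and the ratio turned to 0.25 after thinning, 0.16 in the mean of per-cell CPM and 0.69 without the cells with granule lineage UMIs. Ifit2 stood at 0.60 without the cells with MHC class II UMIs, and Rnf213 at 0.82 without the cells with granule lineage UMIs. Slfn1 stood at 0.97 after thinning and at 1.37 in the mean of per-cell CPM. Ifit2 was also seen in 6.30% and 5.54% of granule lineage barcodes.

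Of 12 counted antigen presentation genes 1 was past 2-fold, against 6.03% of all genes in either direction. All 5 in the MHC class II list were below 0, against 52.4% of all genes, with a median of -0.69, and the 1 past 2-fold was Cd74, with 346 UMIs in FLASH monocytes and 469 in standard monocytes (-1.04, -1.25 to -0.84). This rests on a few cells: 1 cell held 213 of the 469 standard UMIs, and the mean of the per-cell CPM gave -0.34, while requiring at least 8 monocyte UMIs gave -1.88. H2-Ab1, with 147 and 165 UMIs, was seen in 6 FLASH and 3 standard monocytes, too few to be counted. H2-DMb1, which helps to load class II molecules, was at -0.47 and turned to 1.05 without the cells with MHC class II UMIs. The 7 counted genes of the MHC class I list had 0 past 2-fold, 3 above 0 and a median of -0.30.

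Genes of macrophage differentiation had a median of -0.66 over 7 counted genes. Among them 0 were past 2-fold higher and 2 lower, against 3.04% and 2.98% of all genes. Spp1, osteopontin (chr5:104435118-104441050, plus strand), had 149 UMIs in 7 of 44 FLASH monocytes and 627 UMIs in 8 of 22 standard monocytes. Its level was 712 CPM after FLASH and 4562 CPM after standard irradiation, a log2 ratio of -2.68 (-2.95 to -2.42). The richest cells held 88 and 321 of these UMIs, and without them the ratio was -2.92. The standard cell with 321 Spp1 UMIs also held 91 UMIs of Ccl24 and 34 of Arg1, had no UMI of Ly6c2, Ccr2, Plac8, Chil3 or Vcan, and met the choice by 4 UMIs of F10; it was the 1 monocyte of 66 with none of the 5 markers. With at least 8 monocyte UMIs required it was -1.88. In C1q-high barcodes Spp1 ran the other way, at 6785 CPM after FLASH and 2949 CPM after standard irradiation.

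Cd63, a lysosomal tetraspanin, had 43 and 60 UMIs (-1.08), and -0.60 with at least 8 monocyte UMIs required. The list of matrix and protease genes had a median of -0.55 over 11 genes besides Vcan. In it Cst3 was past 2-fold higher and Ctsb, cathepsin B (-1.05), and Lgals1, galectin 1 (-1.10), lower. Of all genes 3.04% were higher and 2.98% lower. With at least 8 monocyte UMIs required Ctsb was at -0.61, and Lgals1 was at -0.77 without the cells with MHC class II UMIs. Cst3, the protease inhibitor cystatin C, had 533 UMIs after FLASH and 160 after standard irradiation (1.127, 0.87 to 1.39); without the cells with MHC class II UMIs, in which it stood at 7198 CPM after FLASH and 1316 CPM after standard irradiation, it was at 0.70. Arg1 stood at 454 and 633 CPM (-0.48), and its ratio turned to 0.54 with at least 8 monocyte UMIs required.

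Of 9 counted hypoxia and glycolysis genes 2 were past 2-fold lower after FLASH and 0 higher, against 2.98% and 3.04% of all genes. In all, 8 of the 9 were below 0, against 52.4% of all genes, with a median of -0.67, and Pgam1 and Tpi1 (25 and 35 UMIs, -1.08) were the ones past 2-fold. Ldha, lactate dehydrogenase, stood at 316 CPM after FLASH and 589 CPM after standard irradiation (-0.90), and Gapdh at 1009 and 1441 CPM (-0.51). Without the cells with MHC class II UMIs Gapdh was at -0.13 and Aldoa moved from -0.67 to -0.02, while Ldha stayed at -0.90. Thinning left Gapdh at -0.06, and the mean of per-cell CPM gave -0.31. The list median ran from -1.06 to -0.42 over the alternatives. All 6 counted proliferation genes were below 0, with a median of -0.66, although Stmn1, a microtubule regulator, was at -0.04 and ran from -1.01 to 1.21 over the alternatives, and Top2a (15 and 33 UMIs, -1.72) and Tuba1b were past 2-fold. For Top2a 23 of the 33 standard UMIs came from 1 cell, and without the richest cell of each library it stood at -0.24. Both groups of genes are also abundant in granule lineage barcodes, where Gapdh stood at 967 and 965 CPM and Top2a at 549 and 520 CPM.

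The remaining lists held few or no genes past 2-fold, where 3.04% of all genes were higher and 2.98% lower. Of the 16 myeloid transcription factors and 18 immediate early genes counted, 0 were past 2-fold in either direction, with medians of 0.03 and 0.03. Cebpb stood at 1980 CPM after FLASH and 1819 CPM after standard irradiation, and Spi1, which encodes PU.1, at 435 and 422 CPM. The p53 targets, which DNA damage induces, had only 3 counted genes, Cdkn1a, Bax and Btg2, at 0.40, 0.23 and -0.06, and Bax and Btg2 changed sign in at least 1 alternative setting. Hspd1, a mitochondrial chaperone, was the only one of 8 heat shock genes past 2-fold (22 and 32 UMIs, -1.14). Il13ra1 (25 and 7 UMIs, 1.16) was the only one of 12 growth factor and cytokine receptors, Clec4n (-1.03) the only one of 11 pattern recognition and Fc receptors, and Cxcr4 (-1.11) and Cd9 the only ones of 13 adhesion and homing genes besides Ccr2. None was past 2-fold among 8 S100 and annexin genes, 6 NADPH oxidase genes and 9 iron and antioxidant genes, and Thbs1 was higher among 6 alternative activation and suppressor genes besides Chil3. Tpi1, Hspd1, Il13ra1, Clec4n and Cxcr4 were each within 2-fold in at least 1 alternative setting.

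**Figure D5:**
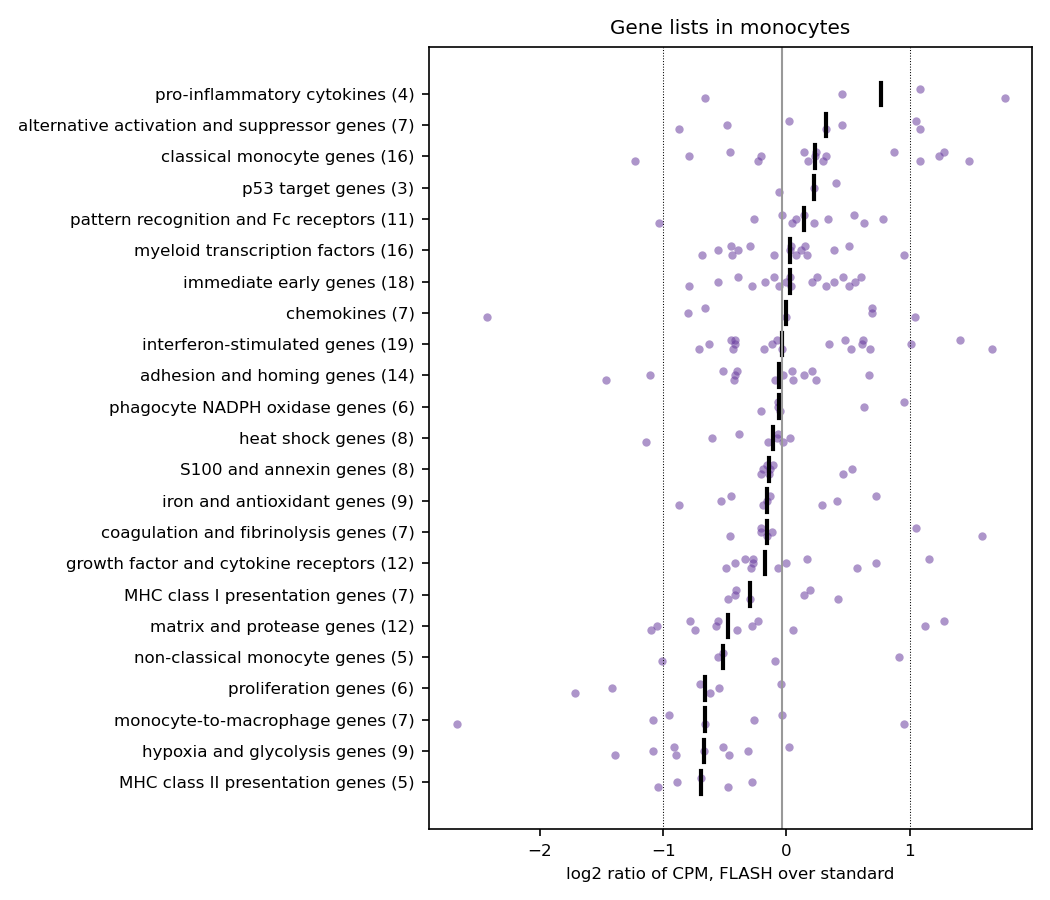
Log2 ratios of CPM, FLASH over standard, in monocytes for the counted genes of 23 lists (number in brackets, genes of the choice included); points are genes, black bars list medians, the grey line the median of all 1709 counted genes and dotted lines 2-fold. Pro-inflammatory cytokines have the highest median (0.77) and MHC class II presentation genes the lowest (-0.69).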

How the data were processed

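Tumour tissue was made into single-cell suspensions and V3 droplet libraries, per the labels' protocols. The deposited matrices hold raw UMI counts, which the file headers credit to Cell Ranger 6.1.2 and the submitters' processing notes to the build mm10. No annotation release was given. Coordinates came from GENCODE release M21 by gene ID and promoters from RefSeq (GRCm38.p6). The FLASH library held 14269 barcodes with 63178900 UMIs and the standard library 12867 barcodes with 55532202 UMIs, and 31055 features were listed in both. PCR and capture errors are not in the intervals.

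UMIs were summed over the monocytes or the C1q-high barcodes of a library. C1q-high barcodes have at least 5 C1q UMIs, pass the same filters on detected genes and mitochondrial UMIs, and have none of the excluded T cell, dendritic cell and neutrophil genes. Shares have exact Clopper-Pearson intervals and ratios exact conditional binomial intervals, at 95%. No p-value was computed, since there is 1 library per group. The calculation was tested on simulated data. The members and the 24 gene lists (385 genes) were chosen with earlier results of these data known.

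The named genes were the 10 highest and 10 lowest ratios of FLASH over standard among counted genes, without genes that had over 25% of UMIs in 1 monocyte and without mitochondrial, ribosomal, haemoglobin, immunoglobulin and unnamed genes and Xist. Also named were the 15 highest and 10 lowest against C1q-high barcodes, the 4 most abundant and 2 most extreme genes of each list, the genes of the choice and the 10 most abundant genes. Further list members past 2-fold, and genes used to describe single cells, were named after their values were seen. Some genes that the rule would name are not reported here. Doublets were kept, and Scrublet removal (scanpy 1.11.5) was an alternative. Tools were Python 3.11.15, NumPy 2.4.6, SciPy 1.17.1, pandas 2.3.3 and Biopython 1.88.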

Additional observations from a re-analysis of the deposited data

Results flagged for a closer look

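For 11 named genes the ratio of FLASH over standard in monocytes and in C1q-high barcodes had intervals on opposite sides of 0 and differed by at least 2-fold. The difference between the classes was not tested, since there is 1 library per group. Lower after FLASH in monocytes and higher in C1q-high barcodes were Spp1 (log2 ratios of -2.68 and 1.202), Mif (-1.27 and 0.22), Tpi1 (-1.08 and 0.29), Cd63 (-1.08 and 0.09), Cd74 (-1.04 and 0.22), Fabp5, a fatty acid binding protein (-0.95 and 0.33), Ldha (-0.90 and 0.21), Hmox1, heme oxygenase 1 (-0.87 and 0.68), and Ifi27l2a, an interferon-stimulated gene (-0.71 and 0.93). Higher in monocytes and lower in C1q-high barcodes were Plaur (1.58 and -0.57) and Cst3 (1.127 and -0.34).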

How the results depend on the processing

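No paired analysis was possible because each group is 1 library and the groups share only 1 replicate number. Counts of genes past 2-fold depended on the count minimum. With at least 10 UMIs per gene 257 genes were higher and 256 lower after FLASH, with at least 60 UMIs 15 and 19, and with monocytes thinned to 2000 UMIs 16 and 23. Without the cell richest in each gene in each library 98 were higher. That setting takes out 1 of 44 FLASH but 1 of 22 standard monocytes and leaves the totals unchanged, so by itself it favours higher ratios. The median of the myeloid transcription factors was 0.17 after Scrublet removal and 0.23 without the richest cell. The share of monocytes among kept barcodes kept a log2 ratio of 0.56 to 0.81 over 9 alternatives and that among myeloid barcodes 0.74 to 0.98. The counts against C1q-high barcodes ran from 289 to 367 higher and from 193 to 253 lower. Cd36 changed sign, to 0.047, with at least 8 monocyte UMIs required. Of 45 named genes past 2-fold, 44 kept their sign in all 16 alternatives, 19 stayed past 2-fold in each, and 40 did so without the richest cell. Leaving Vcan out of the choice and leaving out cells with MHC class II UMIs were chosen after seeing the data. With 66 monocytes, ratios of genes with few UMIs have wide intervals.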
